A study of Homo sapiens with 18 samples.

Results

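The eye field and forebrain transcription factors PAX6, SIX3, SIX6, RAX, LHX2, HESX1, VAX1, FEZF2, OTX2 and EMX2 were followed across human embryonic stem cells and embryoid bodies. They are 10 of the 18418 genes that the array's annotation names on at least 1 probe set of their own. Each was read from the probe set that names only that symbol, the one with the highest mean where a gene has several; each of the 10 has 1. The cells were the H1 line, an established line of human embryonic stem cells, so all groups share 1 genome. Pluripotent cells were grown without feeder cells, on Matrigel in mTeSR1; the other state was embryoid bodies, aggregates set up in AggreWell plates and cultured in APEL medium for 6 days. In each state the cells were untransduced, or carried a lentivirus with a control shRNA, or carried a lentivirus with an shRNA against KBTBD8, a substrate adaptor of a ubiquitin ligase, and each of these 6 groups had 3 arrays. The shRNA-carrying cells differ from the untransduced ones in having been transduced at all, so the control shRNA is the reference for KBTBD8 shRNA. Separate cultures behind the 3 arrays of a group are not stated in the labels, and the p-values measure only the spread between these arrays, which may be technical.

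The eye field is the region of the anterior neural plate from which both eyes arise, and it is marked by the overlapping expression of RAX, PAX6, SIX3, SIX6 and LHX2. These factors regulate one another, and SIX3 and HESX1 help keep the anterior plate free of posteriorising Wnt signals. OTX2 marks the future forebrain and midbrain and is also made in pluripotent epiblast cells, while FEZF2, EMX2 and VAX1 pattern the forebrain around the eye field. Embryoid bodies in a medium without added patterning signals commonly form anterior neural tissue, the setting in which these genes are used as markers.

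Most of these factors are homeodomain proteins, whose DNA-binding domain recognises a core of TAATTA or a close variant, so the start-site windows of the genes were searched for that core. The windows are those of RefSeq on GRCh38.p14, 300 bases each, with 250 bases before the start and 50 from the start on; 8 of the 10 genes matched, with 18 windows. The following 4 cover each embryoid body group as the one with the highest mean. LHX2 and RAX had it untransduced, HESX1 with KBTBD8 shRNA and EMX2 with control shRNA. TAATTA is in capitals, 5′ to 3′ on the strand of the gene. HESX1 is on the minus strand (chr3:57199929-57200228), RAX on the minus strand (chr18:59273405-59273704), LHX2 on the plus strand (chr9:124011518-124011817) and EMX2 on the plus strand (chr10:117542496-117542795).
HESX1: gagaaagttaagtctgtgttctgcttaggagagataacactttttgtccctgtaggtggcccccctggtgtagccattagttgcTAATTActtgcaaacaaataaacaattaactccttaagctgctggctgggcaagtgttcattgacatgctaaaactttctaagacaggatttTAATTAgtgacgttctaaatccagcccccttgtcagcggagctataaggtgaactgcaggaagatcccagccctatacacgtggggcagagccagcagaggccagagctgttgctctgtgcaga
LHX2: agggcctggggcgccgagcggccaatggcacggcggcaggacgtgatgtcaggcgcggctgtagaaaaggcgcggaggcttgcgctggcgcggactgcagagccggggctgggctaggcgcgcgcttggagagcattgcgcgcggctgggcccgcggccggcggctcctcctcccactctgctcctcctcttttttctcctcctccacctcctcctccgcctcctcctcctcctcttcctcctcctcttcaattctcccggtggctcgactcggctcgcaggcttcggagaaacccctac
RAX: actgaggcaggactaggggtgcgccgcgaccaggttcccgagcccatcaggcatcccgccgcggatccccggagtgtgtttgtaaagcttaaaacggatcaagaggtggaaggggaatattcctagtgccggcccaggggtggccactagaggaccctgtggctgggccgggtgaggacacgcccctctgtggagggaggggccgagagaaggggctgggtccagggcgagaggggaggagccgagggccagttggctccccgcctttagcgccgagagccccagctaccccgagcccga
EMX2: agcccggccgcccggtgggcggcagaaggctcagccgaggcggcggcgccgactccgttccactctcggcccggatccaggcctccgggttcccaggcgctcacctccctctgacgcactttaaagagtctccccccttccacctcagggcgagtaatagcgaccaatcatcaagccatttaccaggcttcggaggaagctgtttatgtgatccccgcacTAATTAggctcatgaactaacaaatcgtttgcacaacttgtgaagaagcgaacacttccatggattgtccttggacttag
The core occurs in 2 of the 18 windows, against 4.84% of all 35116 windows of this length. The 18 windows are not spread evenly over the genes, and PAX6 has the most. HESX1 holds 2 copies in the window shown, which was chosen because it has them; its other window, with a GC content of 78.7% against 46.3% here, has none. EMX2 holds 1 copy, and the windows shown for LHX2 and RAX hold none and are GC-rich, at 69% and 67%, where the median of all windows is 58.7%. The windows of VAX1, also highest with KBTBD8 shRNA, and of OTX2, whose highest mean was also with control shRNA, hold none either. A relation of the core to the order of the groups was not tested. Of the other motifs searched on both strands, the OTX site TAATCC and the TGATAC site of SIX-family proteins occur in 0 of the 18 windows (6.36% and 4.4% of all windows), and the TCF/LEF site CTTTGA in 1, in SIX6 (12.92% of all). None of these motifs overlaps another in the windows of these genes. A match is a run of letters, not a measured binding site, and no match says only that the letters are not in that window.

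Values are the authors' log2 expression values. Replicate 2 of KBTBD8 shRNA stood apart in both states. On the array labelled embryoid body, KBTBD8 shRNA, replicate 2, all 10 genes were nearer to the other KBTBD8 shRNA arrays of the pluripotent state than to those of its own. On the array labelled pluripotent, KBTBD8 shRNA, replicate 2, 9 of 10 were nearer to the embryoid bodies, the exception being FEZF2. All 10 lay above every pluripotent control shRNA array on it, where 35.3% of all genes tested did. PAX6 read 4.35 on the first of these and 8.90 on the second, where the other KBTBD8 shRNA embryoid bodies read 9.04 and 9.09 and the other KBTBD8 shRNA pluripotent arrays 4.42 and 4.49. SIX3 read 5.69 and 10.58 in the same order, and LHX2 5.30 and 8.15. These 2 arrays look exchanged, but the labels do not say so, and they were read apart. The comparisons below rest on the other 16 arrays (n = 2 in both KBTBD8 shRNA groups, n = 3 elsewhere). For the 10 genes each is also given over all 18 as labelled, and for the marker lists part of the counts is. The targeted gene, KBTBD8, was at 6.84 ± 0.39 log2 (SD, n = 3) with control shRNA and 5.04 ± 0.12 (SD, n = 2) with KBTBD8 shRNA in pluripotent cells, lower by limma (difference -1.79, adjusted p 2.8e-04). In embryoid bodies it was at 4.75 ± 0.31 (SD, n = 3) and 4.76 ± 0.15 (SD, n = 2), a difference of 0.01 with a 95% interval from -0.54 to 0.55, and untransduced embryoid bodies were at 4.56 ± 0.50 (SD, n = 3). These 3 means lie below the 40th percentile level of the arrays (5.26 to 5.54), near the background, so they do not show whether the knockdown held in embryoid bodies. The state of the cells matched its label on the 16 arrays: the mean of 18 pluripotency genes lay between 9.04 and 9.29 log2 on the pluripotent arrays and between 7.39 and 8.22 on the embryoid bodies.

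All 10 genes passed the filter on low values, which asked for a level above the array's 40th percentile (5.26 to 5.54 log2) on at least 3 arrays. PAX6 and EMX2 were above that level on none of the 8 pluripotent arrays and on all 8 embryoid body arrays, so they passed only through the embryoid bodies. LHX2 and VAX1 (2 pluripotent arrays each) and HESX1 (1) also fell short of 3 pluripotent arrays, so 5 of the 10 genes owed their passing to the embryoid bodies. HESX1 was above it on 6 arrays, 5 of them embryoid bodies, and on none of the control shRNA embryoid bodies. SIX6, RAX, FEZF2 and OTX2 were above it on all 16 arrays. A low reading on such an array is close to the probe set's background, so differences from it can understate the change in RNA.

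PAX6, the paired-box factor required for eye formation, had the widest range of the 10. In untransduced cells it read 4.35, 4.72 and 4.33 log2 on the pluripotent arrays and 10.32, 10.26 and 10.40 in embryoid bodies. Control shRNA embryoid bodies read 9.77, 9.53 and 9.55 and KBTBD8 shRNA embryoid bodies 9.04 and 9.09. The 3 sets of embryoid bodies did not overlap, and lay in the order untransduced, control shRNA, KBTBD8 shRNA, all above every pluripotent array of the 16.

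SIX3, a SIX-family homeodomain factor that represses Wnt genes in the anterior plate, had another order. It read 9.81, 10.11 and 9.79 log2 in untransduced embryoid bodies, 7.14, 7.24 and 7.16 with control shRNA, and 10.23 and 10.59 with KBTBD8 shRNA. The pluripotent arrays of the 3 groups lay between 5.17 and 5.73. Control shRNA embryoid bodies thus sat between the pluripotent arrays and the other embryoid bodies, and the KBTBD8 shRNA embryoid bodies were the highest.

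LHX2, a LIM-homeodomain factor needed for the optic vesicle to progress to a cup, read 9.83, 9.65 and 9.61 log2 in untransduced embryoid bodies. It read 6.56, 6.92 and 6.72 with control shRNA and 8.28 and 8.43 with KBTBD8 shRNA. Pluripotent arrays lay between 5.04 and 5.74. The KBTBD8 shRNA embryoid bodies were intermediate, without overlap with either of the other embryoid body groups.

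RAX, the retina and anterior neural fold homeobox factor, and SIX6, the optic relative of SIX3, followed the same order as LHX2 over a narrower range. RAX read 7.63, 7.80 and 7.47 log2 in untransduced embryoid bodies, 6.09, 6.00 and 6.33 with control shRNA and 6.87 and 7.04 with KBTBD8 shRNA. The control shRNA embryoid bodies were at 6.14 ± 0.17 (SD, n = 3) and the control shRNA pluripotent arrays at 5.92 ± 0.07 (SD, n = 3). SIX6 read 7.75, 7.88 and 7.38 in untransduced embryoid bodies, 6.60, 6.80 and 6.70 with control shRNA and 7.37 and 7.42 with KBTBD8 shRNA, and its untransduced and KBTBD8 shRNA embryoid bodies overlapped.

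HESX1, a paired-like repressor needed for forebrain and pituitary development, and VAX1, a ventral forebrain and optic stalk factor, were highest with KBTBD8 shRNA. HESX1 read 5.87, 6.07 and 5.77 log2 in untransduced embryoid bodies, 4.71, 4.55 and 4.75 with control shRNA and 6.43 and 6.61 with KBTBD8 shRNA. Its control shRNA embryoid bodies lay within the range of its pluripotent arrays, 4.15 to 5.43. VAX1 read 5.55, 5.49 and 5.74 in untransduced embryoid bodies, 5.26, 5.61 and 5.15 with control shRNA and 6.84 and 6.89 with KBTBD8 shRNA. The untransduced and control shRNA embryoid bodies overlapped for VAX1, and its pluripotent arrays ranged from 4.26 to 5.80.

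Like PAX6, the remaining 3 genes did not have their low point in control shRNA embryoid bodies. OTX2, the orthodenticle factor of the forebrain and midbrain, read 10.76, 10.78 and 10.90 log2 in untransduced embryoid bodies, 10.90, 10.91 and 10.86 with control shRNA and 10.52 and 10.61 with KBTBD8 shRNA. EMX2, a cortical patterning homeobox factor, read 6.75, 6.78 and 7.20, then 7.76, 7.88 and 7.71, then 6.66 and 7.31, in the same order of groups. FEZF2, a zinc finger factor of the anterior plate and later of deep-layer cortical neurons, read 7.46, 6.71 and 7.35, then 7.48, 7.02 and 7.38, then 6.56 and 6.72. For EMX2 the control shRNA embryoid bodies were above both other groups, and for FEZF2 the KBTBD8 shRNA embryoid bodies were below the control shRNA ones and overlapped the untransduced ones.

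**Figure D1:**
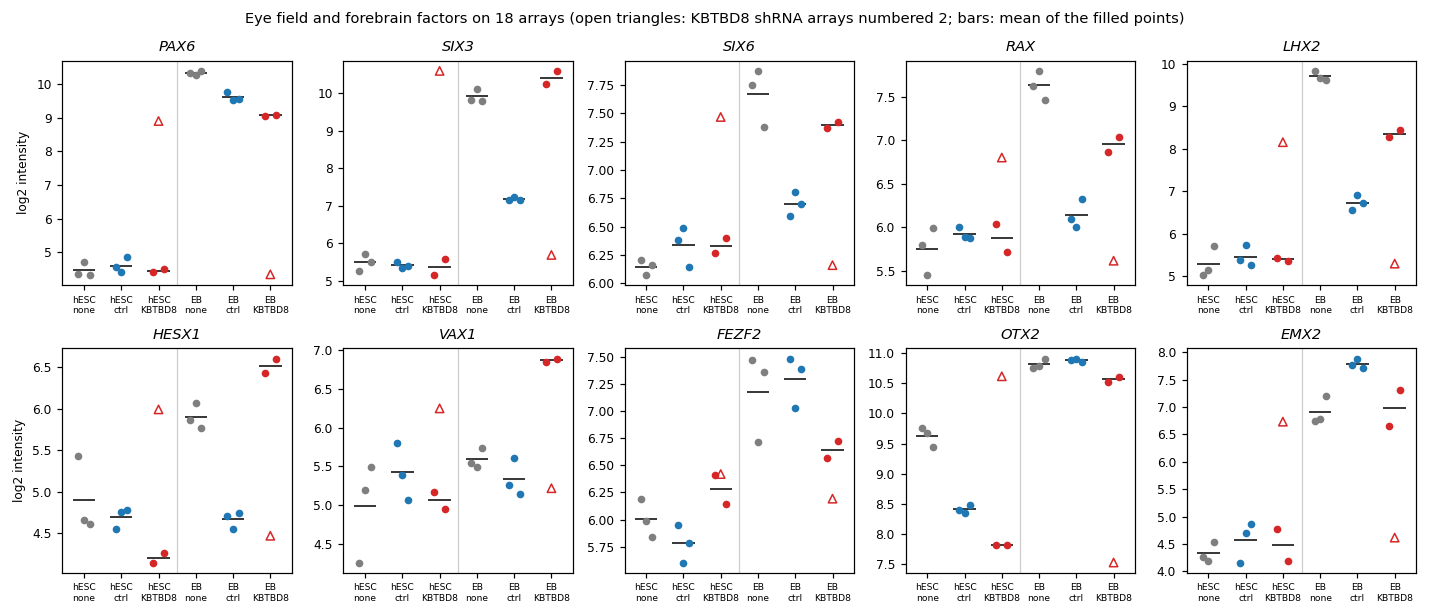
Log2 expression value (y axis) of each of the 10 genes in the 6 groups (x axis), 1 point per array, with the 2 KBTBD8 shRNA replicate 2 arrays drawn apart. PAX6 lay at or above 9.04 in every embryoid body of the 16 arrays, while SIX3, LHX2 and RAX had their lowest embryoid body values with control shRNA.

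In untransduced cells, the change from pluripotent cells to embryoid bodies raised all 10 genes (limma, Benjamini-Hochberg adjusted p under 0.05), where 26% of the 14143 genes tested were higher. PAX6 rose by 5.85 ± 0.12 log2 (SE), a 57.8-fold difference with adjusted p 9.2e-15. SIX3 rose by 4.41 ± 0.14 (SE), LHX2 by 4.40 ± 0.16 and EMX2 by 2.58 ± 0.20, which correspond to 21.3-fold, 21.1-fold and 5.98-fold. In bulk samples, more cells expressing a gene and more RNA per expressing cell cannot be told apart. RAX rose by 1.89, SIX6 by 1.52, OTX2 by 1.19, FEZF2 by 1.17, HESX1 by 1.00 and VAX1 by 0.61, with adjusted p from 8.2e-09 for OTX2 to 0.0445 for VAX1. The median over the 10 genes was 1.70, beside -0.04 over all genes tested. The count and the median include the 5 genes that passed the filter only through the embryoid bodies (PAX6, EMX2, LHX2, HESX1 and VAX1), a route that favours genes higher there, and are a description; the other 5 were all called higher. VAX1 lost its call in 10 of the 16 refits that each left out 1 array, with a difference as low as 0.24 and adjusted p up to 0.268, the last without untransduced pluripotent array 1. It was also not called with the compared groups alone (adjusted p 0.0749), with median centring (0.0736) or with no filter on low values (0.0583). With all 18 arrays 7 genes were higher, and HESX1, OTX2 and VAX1 were not called (adjusted p 0.120, 0.202 and 0.276).

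With control shRNA, 7 of the 10 genes rose between the states, where 23.1% of all genes tested were higher; 3 of the 7 (PAX6, EMX2 and LHX2) passed the filter only through the embryoid bodies. PAX6 rose by 5.02 ± 0.12 log2 (SE), EMX2 by 3.21 ± 0.20, OTX2 by 2.48 ± 0.08 and SIX3 by 1.76 ± 0.14. FEZF2 rose by 1.52, LHX2 by 1.27 and SIX6 by 0.36 (adjusted p 0.0176, limma). RAX, HESX1 and VAX1 did not pass, with differences of 0.22, -0.03 and -0.08 and 95% intervals of -0.07 to 0.51, -0.37 to 0.32 and -0.59 to 0.43. The SIX6 call was lost without control shRNA embryoid body array 2 (0.31) or control shRNA pluripotent array 3 (0.27). As labelled, the 18 arrays gave 4 of the genes as higher (EMX2, FEZF2, OTX2 and PAX6), and LHX2, SIX3 and SIX6 lost their calls.

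With KBTBD8 shRNA, 9 of the 10 rose between the states, where 17.4% of all genes tested were higher; 5 of the 9 (PAX6, EMX2, LHX2, HESX1 and VAX1) passed the filter only through the embryoid bodies. SIX3 led, at 5.03 ± 0.17 log2 (SE), 32.6-fold, followed by PAX6 at 4.61 ± 0.15, LHX2 at 2.96 ± 0.19, OTX2 at 2.75 ± 0.10 and EMX2 at 2.51 ± 0.25. HESX1 rose by 2.31, VAX1 by 1.80, RAX by 1.08 and SIX6 by 1.06. FEZF2 was the gene that did not pass, at 0.37 with a 95% interval from -0.08 to 0.82. This comparison rests on 2 arrays against 2, and over all 18 arrays as labelled limma called 0 of the 10 and 0 of all genes tested, with 763 genes and 0 of the 10 at an unadjusted p under 0.05.

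**Figure D2:**
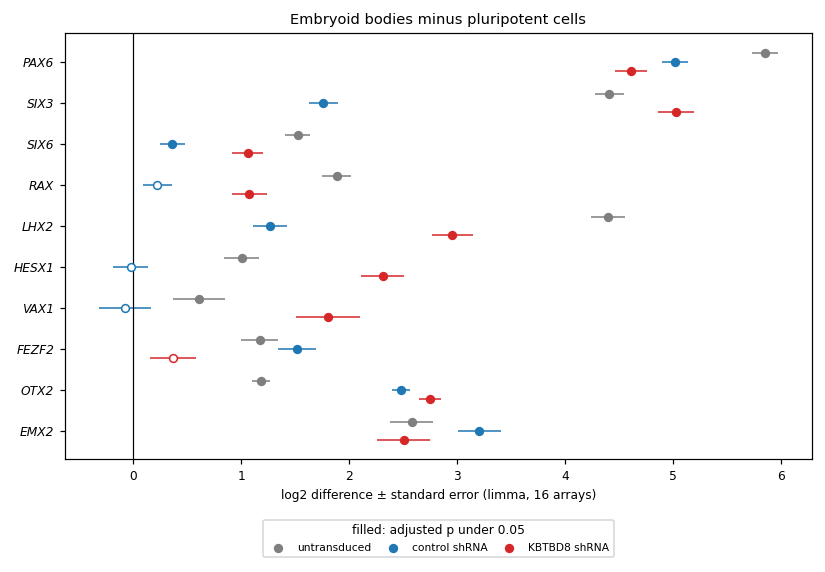
Log2 difference between embryoid bodies and pluripotent cells (x axis) for each of the 10 genes (y axis) in untransduced, control shRNA and KBTBD8 shRNA cells, with bars of 1 standard error from limma on 16 arrays, filled where called. PAX6 was between 4.61 and 5.85 in all 3 treatments, whereas SIX3 was 4.41, 1.76 and 5.03.

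Whether the rise itself differed between treatments was tested as an interaction. Between control shRNA and untransduced cells, the rise was smaller with control shRNA for 6 of the 10 genes, where 8.66% of all genes tested had a lower interaction, and larger for OTX2, where 8.24% had a higher one. The interaction was -3.13 ± 0.22 log2 (SE) for LHX2, -2.65 ± 0.19 for SIX3, -1.67 ± 0.19 for RAX, -1.16 ± 0.17 for SIX6, -1.03 ± 0.23 for HESX1 and -0.83 ± 0.17 for PAX6. For OTX2 it was 1.29 ± 0.12. All 5 eye field genes are among the 6 with a smaller rise. Of these 6, LHX2, HESX1 and PAX6 passed the filter only through the embryoid bodies, so the count is a description. VAX1 (-0.69), EMX2 (0.63) and FEZF2 (0.35) did not pass. On the 18 arrays as labelled RAX alone of the 10 was called (-1.67, adjusted p 0.0368).

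In embryoid bodies themselves, 6 of the 10 genes were lower with control shRNA than without virus, where 20.3% of all genes tested were lower. EMX2 was higher, where 24.5% were higher. HESX1, among the 6 lower, was above the filter level on 3 untransduced and 0 control shRNA embryoid bodies. Its passing rested on groups where it was high, so the count is a description. The array medians were 5.85 to 5.91 log2 in untransduced and 6.05 to 6.08 in control shRNA embryoid bodies. LHX2 was lower by a log2 difference of -2.96 ± 0.16 (SE; adjusted p 7.5e-10) and SIX3 by -2.72 ± 0.14 (adjusted p 4.3e-10), that is 7.80-fold and 6.60-fold. RAX was at -1.49 ± 0.13, HESX1 at -1.24 ± 0.16, SIX6 at -0.97 ± 0.12 and PAX6 at -0.70 ± 0.12. These 6 genes did not overlap between the groups on any array, where 27% of all genes tested lay lower without overlap. EMX2 was at 0.87 ± 0.20, and VAX1, FEZF2 and OTX2 overlapped between the groups, with differences of -0.25, 0.12 and 0.08. The 2 arrays that stood apart belong to neither of these groups, but the model shares 1 estimate of the spread, and with all 18 arrays 3 genes, LHX2, RAX and SIX6, kept their calls. On 16 arrays all 7 calls held with each array left out.

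The embryoid bodies of these groups also differed in markers of other tissues. Of all genes tested, 24.5% were higher and 20.3% lower. With control shRNA 14 of 16 neural crest genes tested were higher and 1 lower, with a median difference of 2.05 beside 0.03 over all genes: TFAP2B by 4.95, PAX3 by 4.55, ETS1 by 4.07 and SNAI2 by 3.98. The mean level of that list was 5.96 to 6.06 log2 on untransduced and 8.16 to 8.20 on control shRNA embryoid bodies. Of 14 surface ectoderm and placode genes tested 10 were higher and 0 lower (median 0.79), among them TFAP2C (3.77) and GRHL3 (2.22), and the list's mean was 6.24 to 6.31 against 7.20 to 7.29. Of 12 pan-neural genes 9 were lower and 0 higher (median -0.49), led by FABP7 (-1.59), SOX2 (-1.02), SOX3 (-0.71) and NES (-0.66). Of 16 midbrain, hindbrain and posterior neural genes 10 were higher and 1 lower (median 0.53), with OLIG3 (1.85), WNT1 (1.29), LMX1B (1.10) and IRX1 (0.90). Of 18 pluripotency genes 11 were higher and 3 lower (median 0.30), and of 11 anterior endoderm and primitive streak genes 4 were higher and 0 lower (median 0.30). Over all 18 arrays 13 neural crest and 6 surface ectoderm and placode genes were higher and 5 pan-neural genes lower. The part of these cell types in the levels of the eye field genes was not tested.

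Other genes of the same territories were called in both directions, where 24.5% of all genes tested were higher and 20.3% lower. Of 8 telencephalon and anterior neural ridge genes tested, LHX5 (1.38) was higher and FGF8 (-1.79) and SP8 (-0.71) were lower with control shRNA, and 5 did not pass (median -0.01). FGF8 is a secreted signal of the anterior neural ridge, and SP8 a zinc finger factor expressed there. Of 10 retina and optic vesicle genes tested 4 were higher and 1 lower, the lower one being DACH1 (-1.36), a partner of SIX-family proteins, and EYA2 (1.12), TBX2 (1.03) and ATOH7 (0.62) being higher (median -0.01).

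KBTBD8 shRNA embryoid bodies differed from control shRNA embryoid bodies in 8 of the 10 genes. Of these, 6 were higher, where 2.84% of all genes tested were higher, and 2 were lower, where 2.97% were lower. HESX1, among the 6 higher, was above the filter level on 2 KBTBD8 shRNA and 0 control shRNA embryoid bodies. Its passing rested on groups where it was high, so the count is a description. SIX3 was higher by 3.23 ± 0.15 log2 (SE), 9.35-fold, with adjusted p 2.6e-09. HESX1 was higher by 1.85 ± 0.18, LHX2 by 1.62 ± 0.17, VAX1 by 1.52 ± 0.27, RAX by 0.81 ± 0.15 and SIX6 by 0.70 ± 0.13. PAX6 was lower (-0.55 ± 0.13, adjusted p 0.0198) and so was EMX2 (-0.80 ± 0.22, adjusted p 0.0462). FEZF2 (-0.65, adjusted p 0.0616) and OTX2 (-0.32, adjusted p 0.0588) did not pass. So SIX3, SIX6, RAX and LHX2 were higher and PAX6 was lower among the eye field genes, and the array values of all 10 genes were free of overlap between these groups, 6 above and 4 below, where 16.9% of all genes tested lay above without overlap and 18.3% below.

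Some of these calls were lost when 1 array was left out, in part with little or no change in the difference. The EMX2 call was lost in 9 of 16 refits that each left out 1 array, with -0.48 and adjusted p 0.518 without KBTBD8 shRNA embryoid body array 1. The PAX6 call was lost without control shRNA embryoid body array 1 (-0.48, adjusted p 0.0908) and without KBTBD8 shRNA embryoid body array 1 (-0.53, 0.149) or 3 (-0.58, 0.0938). The RAX call was lost without KBTBD8 shRNA embryoid body array 3 (0.73, adjusted p 0.0554). FEZF2 came to be called in 3 refits (as far as -0.79, without control shRNA embryoid body array 2) and OTX2 in 2, without untransduced pluripotent array 1 or 3. Without the filter on low values EMX2 was not called (adjusted p 0.0660). FEZF2 was called with the compared groups alone (0.0329), and FEZF2 and OTX2 were with a filter at the 60th percentile (0.0446 and 0.0381) or with a variance trend (0.0334 and 0.0162). A refit without a KBTBD8 shRNA array leaves 1 array in that group, and its spread is then taken from the other groups. In the refits that left at least 2 arrays in each group, SIX3, HESX1, LHX2, VAX1 and SIX6 kept their calls. Over all 18 arrays as labelled, 1 of the 10 was called, FEZF2 at -0.80 (adjusted p 0.0374).

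The comparison of control shRNA with untransduced embryoid bodies and that of KBTBD8 shRNA with control shRNA share the control shRNA arrays, which enter them with opposite signs. For SIX3 the respective differences were -2.72 and 3.23, for LHX2 -2.96 and 1.62, for RAX -1.49 and 0.81, for HESX1 -1.24 and 1.85, for SIX6 -0.97 and 0.70, and for PAX6 -0.70 and -0.55. KBTBD8 shRNA and untransduced embryoid bodies share no array and give the order of those 2 groups directly. There, 3 of the 10 genes were higher with KBTBD8 shRNA, near the 22.5% of all genes tested that were higher. A further 5 were lower, where 18.7% were lower. VAX1 was at 1.27 ± 0.27 log2 (SE), HESX1 at 0.61 ± 0.18 and SIX3 at 0.50 ± 0.15. LHX2 was at -1.34 ± 0.17, PAX6 at -1.26 ± 0.13, RAX at -0.68 ± 0.15, FEZF2 at -0.53 ± 0.19 and OTX2 at -0.25 ± 0.09. SIX6 was at -0.27, with a 95% interval from -0.55 to 0.0044, and EMX2 at 0.07, from -0.41 to 0.55. LHX2, PAX6 and RAX were therefore below untransduced embryoid bodies with either shRNA. SIX3 and HESX1 were below them with control shRNA and above them with KBTBD8 shRNA. In the same comparison of KBTBD8 shRNA with untransduced, 11 of 12 pan-neural genes were lower and 0 higher (median -0.61). Of 16 neural crest genes 14 were higher and 1 lower, and of 14 surface ectoderm and placode genes 11 were higher and 0 lower. Of 18 pluripotency genes 12 were higher and 2 lower. Over all 18 arrays 10 pan-neural genes were lower, and 6 neural crest genes were higher and 1 lower.

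Of the calls against untransduced embryoid bodies, SIX3 was lost without untransduced embryoid body array 3 (0.45, adjusted p 0.0545) or KBTBD8 shRNA embryoid body array 3 (0.32, adjusted p 0.187), and HESX1 without either of the same arrays (0.55 and 0.53). FEZF2 was lost without untransduced embryoid body array 1 or 3 or KBTBD8 shRNA embryoid body array 1 or 3, and OTX2 in 13 of the 16 refits. FEZF2 and OTX2 were not called with the compared groups alone (adjusted p 0.0733 and 0.0712), OTX2 not with quantile normalization (0.0885) or no filter (0.0607), and HESX1 not with quantile normalization (0.0849). SIX6 came to be called without untransduced embryoid body array 3 (-0.42). In the refits that left at least 2 arrays in each group, VAX1, LHX2, PAX6 and RAX kept their calls. With all 18 arrays 3 of the 10 were called, all lower: LHX2 (-2.36), RAX (-1.13) and FEZF2 (-0.68).

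**Figure D3:**
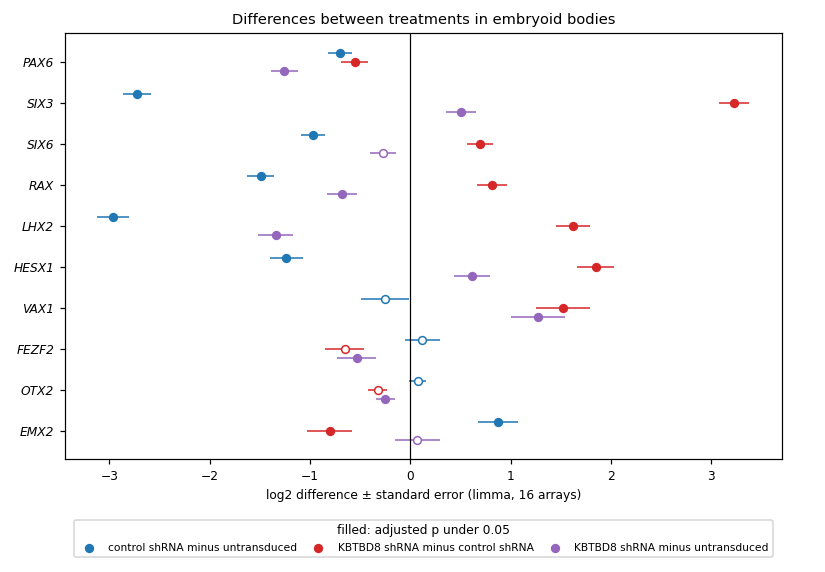
Log2 difference between treatments in embryoid bodies (x axis) for each of the 10 genes (y axis), with bars of 1 standard error from limma on 16 arrays, filled where called. SIX3 was at -2.72 for control shRNA minus untransduced, 3.23 for KBTBD8 shRNA minus control shRNA and 0.50 for KBTBD8 shRNA minus untransduced, and PAX6 was below 0 in all 3.

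Markers of other tissues differed between KBTBD8 shRNA and control shRNA embryoid bodies as well. Of all genes tested, 2.84% were higher and 2.97% lower. Of the 16 neural crest genes 9 were lower and 1 higher (median -0.70): ETS1 by -3.19, SNAI2 by -2.52, TFAP2B by -2.14 and PAX3 by -1.95. The mean of the list was 7.14 and 7.28 log2 with KBTBD8 shRNA, between the control shRNA (8.16 to 8.20) and the untransduced (5.96 to 6.06) embryoid bodies. Of the 14 surface ectoderm and placode genes 8 were higher and 0 lower (median 0.52), among them DLX5 (2.22), GRHL2 (1.05), GATA3 (0.99) and DLX6 (0.75), so the list's mean, 7.73 and 7.85, was the highest of the 3 embryoid body groups. Several of the 10 genes, SIX3, SIX6, OTX2, HESX1 and PAX6 included, are also expressed in the anterior placodes. With all 18 arrays 6 neural crest genes were lower and 1 surface ectoderm and placode gene higher. The part of placodal or crest cells in their levels was not tested.

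Among the other anterior neural genes in this comparison, FGF8 (1.30) and SP8 (0.66) were higher and OTX1 (-0.61) lower of 8 telencephalon and anterior neural ridge genes (median 0.06). DACH1 (0.67) and RORB (0.60) were higher and TBX2 (-0.45) lower of 10 retina and optic vesicle genes (median 0.18). Of 16 posterior neural genes PAX8 (1.76), a paired-box factor also of the otic placode, was the single one called (median -0.04). Of 12 pan-neural genes SOX2 (0.63) was higher, and NCAM1 (-1.05) and CDH2 (-0.44) were lower (median -0.14). Of the 18 pluripotency genes 4 were higher and 0 lower, CRIPTO (1.35), GDF3 (0.69), SOX2 (0.63) and DNMT3B (0.43). Of 11 endoderm and primitive streak genes 0 were called. Over all 18 arrays 0 telencephalon and anterior neural ridge genes were called, and 1 retina and optic vesicle gene was lower. Then 1 posterior neural gene was lower, 1 pan-neural gene was higher and 1 lower, and 1 pluripotency gene was higher.

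**Figure D4:**
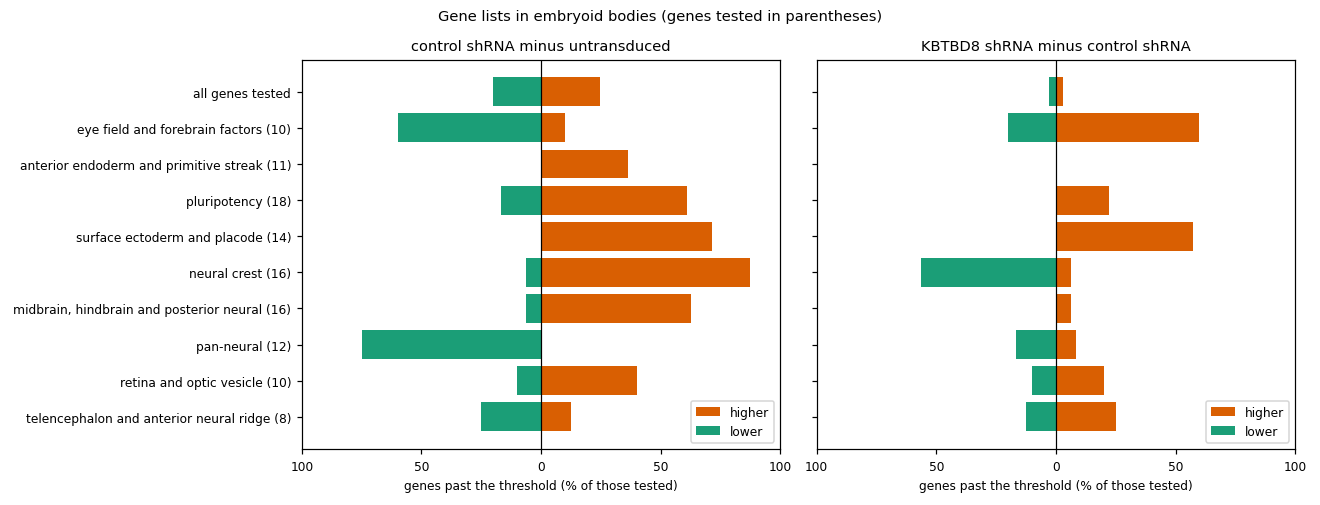
Percent of the tested genes (x axis, right higher and left lower) called in each of 8 marker lists, the 10 genes and all genes (y axis), for control shRNA minus untransduced (left panel) and KBTBD8 shRNA minus control shRNA embryoid bodies (right panel). Neural crest genes had 14 of 16 higher on the left and 9 of 16 lower on the right, and the 10 genes 6 lower on the left and 6 higher on the right, with the control shRNA arrays in both panels.

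The interaction of the KBTBD8 and control shRNA groups with state had a larger rise with KBTBD8 shRNA for 6 of the 10 genes, where 3.74% of all genes tested had a higher interaction, and a smaller rise for FEZF2, where 6.14% had a lower one. SIX3 was at 3.27 ± 0.22 log2 (SE), HESX1 at 2.34 ± 0.26, VAX1 at 1.88 ± 0.38, LHX2 at 1.69 ± 0.25, RAX at 0.86 ± 0.21 and SIX6 at 0.70 ± 0.19. FEZF2 was at -1.15 ± 0.27. Of the 6 with a larger rise, HESX1, VAX1 and LHX2 passed the filter only through the embryoid bodies, so the count is a description. OTX2 (0.27), PAX6 (-0.41) and EMX2 (-0.70) did not pass. The SIX6 call was lost in 8 of the 16 refits that left out 1 array, each of them an array of the control or KBTBD8 shRNA groups (0.62 to 0.77, adjusted p 0.0504 to 0.0952), RAX without pluripotent KBTBD8 shRNA array 3 (0.69) or KBTBD8 shRNA embryoid body array 3 (0.77), and FEZF2 without array 1 of either KBTBD8 shRNA group (-1.02 and -1.07). On the 18 arrays as labelled FEZF2 alone of the 10 was called (-1.35, adjusted p 0.0132).

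In pluripotent cells OTX2 was the 1 gene of the 10 called between treatments. It read 9.77, 9.67 and 9.45 log2 untransduced, 8.39, 8.35 and 8.49 with control shRNA, and 7.81 and 7.82 with KBTBD8 shRNA, without overlap between any of the 3. Control shRNA was lower than untransduced by a difference of -1.22 ± 0.08 (SE; adjusted p 5.1e-07), where 12.1% of all genes tested were lower, and KBTBD8 shRNA lower than control shRNA by -0.59 ± 0.09 (adjusted p 7.0e-04), where 5.68% were lower. The other 9 genes lay between -0.23 and 0.44 in the first of these comparisons and between -0.49 and 0.50 in the second, with none called. HESX1 in the second (-0.49, adjusted p 0.0898) was called without untransduced pluripotent array 1 (0.0068), with the compared groups alone (0.0310) and with median centring (0.0449), and FEZF2 (0.50, adjusted p 0.103) without untransduced embryoid body array 2 (0.0373). In embryoid bodies OTX2 lay between 10.52 and 10.91 on all 8 arrays, and its rise with differentiation was 1.19 untransduced, 2.48 with control shRNA and 2.75 with KBTBD8 shRNA. Over all 18 arrays neither OTX2 difference was called.

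For the 6 genes whose 6 group means spanned at least 2 log2 units, the nearest genes were those with the smallest root mean square difference of centred group means. PAX6 was nearest to IGFBP5 (0.33), DLK1 (0.37) and GREB1L (0.38). SIX3 was nearest to FRZB (0.48), a secreted Wnt antagonist, then LHX2 (0.73) and PAMR1 (0.75), and LHX2 was nearest to PRSS23 (0.47), FRZB (0.47) and CDH11 (0.48). HESX1 was nearest to VIPR2 (0.24), the Wnt receptor FZD5 (0.26) and PAX8 (0.27). OTX2 was nearest to CRABP2 (0.25), TMEM88 (0.27) and FBN2 (0.36), and EMX2 to BOC (0.27), TSPAN18 (0.32) and the ephrin receptor EPHA4 (0.32). Among the 6 genes ranked, SIX3 alone had another of the 10, LHX2, among its 3 nearest. In the LHX2 ranking SIX3 was at rank 17. SIX6, RAX, VAX1 and FEZF2 spanned 1.52 to 1.89 and were not ranked.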

How the data were processed

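RNA (RNeasy extraction, NuGEN amplification and labelling, per the labels' protocols) was hybridised to 18 Affymetrix gene arrays, 3 in each of 6 groups. The authors deposited 1 table of normalized log2 values per probe set, made with GCRMA per the submitters' processing notes; log base 2 was taken from the range of the values, and whether all arrays were normalized together is not given in the sources used here. Expression values were used as deposited. Of the probe sets, 19461 name 1 gene symbol, 1753 several and 12083 none; the probe set of highest mean among those naming 1 gene alone gave 18418 genes. Symbols come from GEO's platform annotation, and 29 had no RefSeq entry. Arrays have no read depth, and their number limits the precision.

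The 14143 genes that passed the array's 40th percentile on 3 or more arrays were tested with limma 3.58.1 in R 4.3.3 (lmFit and eBayes, 6 group means, 16 arrays), with Benjamini-Hochberg adjustment over all of them and calls at adjusted p under 0.05. The tests were tested on simulated data. All 10 genes were reported, up to 4 listed genes with the largest difference among those called, and the 3 nearest genes for each gene spanning 2 log2 units. The genes and lists were chosen with earlier results of these data known. Same-numbered arrays did not deviate together throughout (36 pairs, r from -0.38 to 0.43, median 0.03, 12 over 0.1), so the numbers were not used as pairs. Not all of these 36 pairs are separate observations, since the 2 arrays of a KBTBD8 shRNA group mirror each other. Alternatives were all 18 arrays, the compared groups alone, other filters, quantile and median scaling, a variance trend, a replicate block and leaving out each array. Figures were drawn with matplotlib 3.10.9, and tables with pandas 2.3.3 in Python 3.11.15.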

Additional observations from a re-analysis of the deposited data

Results flagged for a closer look

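The rise from pluripotent cells to embryoid bodies differed between treatments by an interaction tested in limma. Between control shRNA and untransduced cells it was smaller by a log2 interaction of -3.13 for LHX2, -2.65 for SIX3, -1.67 for RAX, -1.16 for SIX6, -1.03 for HESX1 and -0.83 for PAX6, and larger by 1.29 for OTX2. Between KBTBD8 shRNA and control shRNA it was larger by 3.27 for SIX3, 2.34 for HESX1, 1.88 for VAX1, 1.69 for LHX2, 0.86 for RAX and 0.70 for SIX6, and smaller for FEZF2 (-1.15). The control shRNA arrays enter both. LHX2, HESX1, PAX6 and VAX1 passed the filter only through the embryoid bodies. Of all genes tested, 8.66% had a lower and 8.24% a higher interaction in the first, and 3.74% a higher and 6.14% a lower one in the second. In the second, SIX6 lost its call in 8 of 16 refits without 1 array, and RAX and FEZF2 in 2 each.

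The array labelled pluripotent, KBTBD8 shRNA, replicate 2, was read apart because it looks exchanged with the embryoid body array of that number. It had 10 of the 10 genes above every pluripotent control shRNA array, where 35.3% of all genes tested were. Of the 10, 5 passed the filter only through the embryoid bodies, which such an array resembles. The count is therefore a description of the array and not a result about the genes.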

How the results depend on the processing

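Among the differences of the 10 genes in the 10 comparisons, 65 were called on 16 arrays; 60 of them kept their call under every alternative run on them that left no array out, 53 also with each array left out, and none changed sign; the filter at the 60th percentile did not test HESX1 and VAX1, 12 of the 65. On all 18 arrays as labelled 19 kept it and 6 changed sign; both doubtful arrays then enter, 1 in each KBTBD8 shRNA group. The 18-array counts of genes called were 0 for differentiation with KBTBD8 shRNA (5443 on 16 arrays), 352 for KBTBD8 against control shRNA in embryoid bodies (821) and 729 in pluripotent cells (1999), 3848 for control shRNA against untransduced in embryoid bodies (6346) and 1713 in pluripotent cells (4112), and 744 and 521 for the control and KBTBD8 interactions (2391 and 1397). Of the 10 genes, 4 were then called for differentiation with control shRNA, 3 in embryoid bodies for either shRNA against untransduced, 1 for KBTBD8 against control shRNA in embryoid bodies and for each interaction, and 0 for differentiation with KBTBD8 shRNA and for both pluripotent comparisons.

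The signs that turned on 18 arrays were, for KBTBD8 against control shRNA in pluripotent cells, EMX2 (0.65), HESX1 (0.11), LHX2 (0.85), OTX2 (0.34), PAX6 (1.34), RAX (0.27), SIX3 (1.69), SIX6 (0.37) and VAX1 (0.034). In embryoid bodies against untransduced they were EMX2 (-0.72), HESX1 (-0.069) and SIX3 (-1.07), and in the KBTBD8 interaction LHX2 (-0.25), OTX2 (-1.68), SIX3 (-0.040) and SIX6 (-0.091). Beyond the 2 arrays that enter, the cause was not tested.

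With the replicate number as a block, KBTBD8 against control shRNA in embryoid bodies had 760 genes and 8 of the 10 called (821 and 8 without): EMX2 was lost (adjusted p 0.0524) and FEZF2 gained (-0.77, adjusted p 0.0048). VAX1 in untransduced differentiation (0.0583) and OTX2 for KBTBD8 shRNA against untransduced embryoid bodies (0.0633) were also lost, and SIX3 (0.013) and SIX6 (0.045), not called either way, changed sign in pluripotent cells. Same-numbered arrays of the pluripotent control shRNA and both KBTBD8 shRNA groups correlated at 0.32 to 0.43 (6 pairs, from arrays 1 and 3 alone). The 2 arrays of a KBTBD8 shRNA group deviate equally and oppositely from their mean, so these pairs are not separate observations. Those of control and KBTBD8 shRNA embryoid bodies correlated at -0.13 and 0.01, and the numbers were not taken as pairs. Quantile normalization turned the sign of PAX6 for control shRNA against untransduced in pluripotent cells (-0.022) and of EMX2 for KBTBD8 shRNA against untransduced in embryoid bodies (-0.0060), neither called. Median centring and fitting the compared groups alone each called 2 of the 10 for KBTBD8 against control shRNA in pluripotent cells, and the latter called 2644 genes for control shRNA against untransduced there; the cause was not tested.

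Leaving out 1 array gave 450 to 988 genes called for KBTBD8 against control shRNA in embryoid bodies and 720 to 2282 in pluripotent cells (1 to 2 of the 10), 3570 to 6194 for KBTBD8 shRNA against untransduced embryoid bodies (4 to 8 of the 10) and 731 to 1645 for the KBTBD8 interaction. Uncalled differences crossed 0 in pluripotent cells for KBTBD8 against control shRNA in EMX2 (-0.39 to 0.19), LHX2 (-0.16 to 0.068), RAX (-0.21 to 0.12), SIX3 (-0.25 to 0.17) and SIX6 (-0.10 to 0.071), and for control shRNA against untransduced in HESX1 (-0.35 to 0.058) and SIX3 (-0.19 to 0.044). They did so in embryoid bodies for EMX2 against untransduced with KBTBD8 shRNA (-0.25 to 0.39) and FEZF2 with control shRNA (-0.11 to 0.26), and in control shRNA differentiation for HESX1 (-0.099 to 0.033) and VAX1 (-0.26 to 0.11). Genes near the arrays' background, such as HESX1 and VAX1, limit what small differences can show. Leaving out an array of a KBTBD8 shRNA group leaves 1 array there, so calls for that group then rest on the spread of the other groups.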

Other observations

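Relatives of 3 of the genes were measured too, and were singled out after their values were seen. OTX1, the relative of OTX2, rose with differentiation by 2.02 log2 in untransduced cells, 2.29 with control shRNA and 1.55 with KBTBD8 shRNA, and was lower with KBTBD8 than with control shRNA in embryoid bodies (-0.61, adjusted p 0.028, limma). VAX2, the relative of VAX1, did not pass in any of the comparisons of embryoid bodies, with 0.23 for KBTBD8 against control shRNA where VAX1 was at 1.52. EMX1, the relative of EMX2, was at -0.06 in untransduced differentiation where EMX2 was at 2.58.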
